A study of Brassica rapa with 30 samples.

Results

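The step from acute to prolonged cold was measured in Chiifu, a cultivar of Brassica rapa labelled late flowering, by comparing 3 libraries of plants after 20 days of cold (V20) with 3 libraries after 1 day of cold (V1). These 6 libraries, taken by their labels from 30 in all, hold messenger RNA of whole plants that had grown in a greenhouse until 3 weeks old before the cold began. Chiifu plants sampled without cold (NV), after 40 days of cold (V40), and after 40 days of cold followed by 10 days of warmth (V40T10) were used to place the levels, and the early-flowering cultivar LP08, treated alike, was used to compare the step. Each of these groups held 3 libraries. All cold-treated plants share the same earlier growth, and no untreated plants as old as the V20 plants were among the samples, so 19 more days in the cold and 19 more days of age cannot be told apart. The labels give neither the temperature nor the hour of sampling, and do not say that libraries came from separate plants. The p-values thus weigh a change against the variation among these libraries, part of which may be technical.

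A plant first answers cold with a fast wave of transcription, in which CBF transcription factors switch on COR genes whose products protect cells from freezing and drying. Cold that lasts for weeks has a second effect, vernalization, in which the floral repressor gene FLC is silenced in many Brassicaceae and the plant becomes able to flower. In Arabidopsis the protein VIN3, made during long cold, joins Polycomb proteins at FLC and takes part in that silencing.

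The deposited tables name genes by IDs beginning with Bra or, for noncoding RNAs, ENSRNA, and the reference table used here paired 1 of the 42186 IDs with a symbol. That feature had 0 counts in every library. Lists of cold, flowering, clock, photosynthesis, flavonoid, heat shock and ribosomal genes could therefore not be counted, and features are described by ID. In 2 cases, Bra020445 and Bra024536, an ID is listed for this series as a copy of VIN3 and as the clock gene GIGANTEA, names that neither the deposited tables nor the reference table give.

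The 6 libraries held 19082049 to 26595834 counts on genes, with 29337 to 30402 genes detected in each. Pearson's correlations of log2 levels, in CPM (counts scaled to a common library size), across features were 0.983 to 0.991 between libraries of the same time and 0.934 to 0.95 between V1 and V20 libraries. A count of 0 in all 3 libraries allows up to 0.0462 CPM at V1 and 0.0407 CPM at V20, as far as counting error goes.

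After 20 days of cold, 5028 of the 28712 features tested were higher than after 1 day (17.5%) and 4508 were lower (15.7%), so 33.2% were called in edgeR's quasi-likelihood test at an adjusted p below 0.05. The changes were of similar size in both directions. The median was a rise of 0.92 on the log2 scale among the higher features, and the lower ones fell by 0.92, where the median standard error of all features was 0.24. At 2-fold or more 2262 features were higher and 2029 lower, at 4-fold or more 691 and 673, and at 8-fold or more 273 and 266. Scaled by library totals alone, 5799 features were called higher and 3693 lower. In whole plants, fewer cells of a type and less RNA per cell cannot be told apart in such changes.

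**Figure D1:**
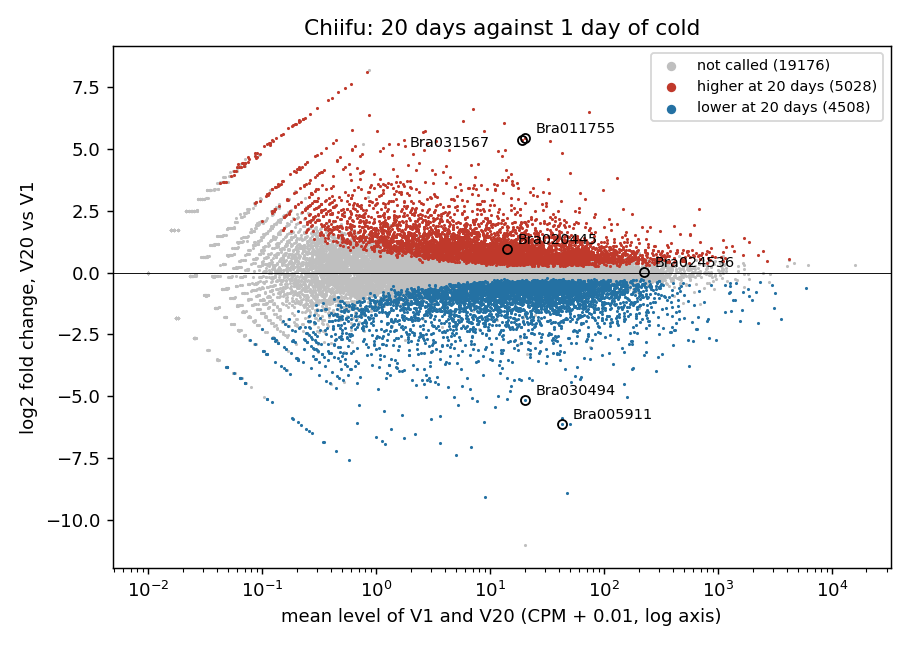
Each point is 1 of 28712 tested features in Chiifu, by its mean level over V1 and V20 (CPM, log axis) and its log2 fold change from 1 to 20 days of cold. Red marks the 5028 features higher at 20 days, blue the 4508 lower ones, grey those not called, and circles mark features described in the text.

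Calls of large changes were unevenly spread over the range of levels. Of the 5368 features with a mean under 1 CPM, 16.2% were called, and 61% of those calls were 4-fold or more. Of the 11627 features between 10 and 100 CPM, 39.9% were called, and 5.78% of those calls were 4-fold or more. A small change is harder to call at low counts, and how far this shaped these shares was not tested. Among the 2183 features that reached 100 CPM at 1 of the times, 14 rose 4-fold or more and 77 fell as far, although 456 were called higher and 566 lower. Among the noncoding ENSRNA features, 26 of the 105 tested were higher at V20 and 6 were lower, so that 30.5% were called, beside 33.2% of Bra features. Of the ENSRNA calls 68.8% were 4-fold or more, against 14.1% of the Bra calls. All ENSRNA features together took 0.0445 to 0.12% of counts at V1 and 0.0648 to 0.11% at V20, in libraries made with an mRNA kit.

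The most abundant transcripts were partly exchanged. Of the 10 features with the highest mean at V1, 5 were among the 10 highest at V20, and of the top 100, 71 were shared. The top 10 features took 5.36 to 5.82% of the counts at V1 and 5.94 to 6.33% at V20, ranges that do not overlap.

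The greatest rise among features with at least 10 counts in each of the 6 libraries was that of Bra011755. It stood at 0.815, 0.725 and 1.21 CPM at V1 and at 38.1, 41 and 39.3 CPM at V20. All V20 libraries lay far above the V1 libraries and within a narrow band. The rise was 43-fold, a log2 change of 5.43 ± 0.48 (standard error, SE) at an edgeR adjusted p of 8.26e-09. The level stayed up afterwards, at 54.6 ± 7.23 CPM at V40 and 47.6 ± 5.43 CPM after return to warmth (SD, n = 3 each), while NV libraries lay between 1.8 and 12.1 CPM. In LP08 it went from 0.774 ± 0.306 to 25.2 ± 4.29 CPM over the same step, 33-fold higher, and reached 90.9 ± 25 CPM after return to warmth.

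Bra031567 rose nearly as far but had another course. Its levels were 0.679, 0.679 and 1.3 CPM at V1 and 50.3, 37.6 and 22.5 CPM at V20, a 41.4-fold rise (log2 change 5.37, SE 0.50, edgeR adjusted p 4.63e-07). It had 0 counts in all Chiifu libraries without cold and in all those after return to warmth. Counts were thus found in the Chiifu libraries taken from the cold, where V40 gave 19 ± 7.71 CPM (SD, n = 3), and in no other Chiifu library. LP08 showed the same times with counts at far lower levels, 1.69 ± 0.84 CPM at V20 and 0.057 ± 0.0561 CPM at V1 from 3 counts in all. The LP08 change was 28.1-fold, and 52.1-fold and 18.3-fold without LP08 V1 replicates 2 and 3 in turn.

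The greatest fall under the same rule was that of Bra005911, a transcript that peaked on the first day of cold. At V1 it stood at 66.1, 93.3 and 94 CPM, and at V20 at 0.651, 1.71 and 1.17 CPM. It fell 70.3-fold (log2 change -6.14, SE 0.34, edgeR adjusted p 9.57e-12), to about the level without cold, where libraries held 1.87, 1.98 and 1.15 CPM. LP08 showed the same peak, with 1.45 ± 0.0825 CPM at NV, 48.7 ± 11.8 CPM at V1, and 1 count over the 3 libraries at V20. Bra030494 peaked likewise, from 0.594 ± 0.469 CPM at NV to 28.3, 29.8 and 60.3 CPM at V1, and back to 0.701, 1.27 and 1.23 CPM at V20. Its fall was 36.2-fold (log2 change -5.18, SE 0.64, edgeR adjusted p 1.03e-06).

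Changes between near absence and expression were rare. At most 3 counts over the 3 libraries at 1 of the times and a mean of at least 1 CPM at the other were found for 15 features expressed at V20 and 12 expressed at V1. Those with at most 3 counts over the 3 libraries at V20 and a mean of at least 5 CPM at V1 were Bra020470 and ENSRNA049462677, named after their values were seen, and no feature passed 5 CPM in the reverse direction. Bra020470 held 21, 18.2 and 14.8 CPM at V1 and 2 counts in all at V20. It then had 0 counts at V40 and 1.43 ± 0.22 CPM after return to warmth. LP08 went the same way during cold, from 24.6, 7.4 and 24.1 CPM at V1 to 2 counts in all at V20 and 0 at V40. After return to warmth LP08 had 1 count in all, and Chiifu remained far below its V1 libraries. The Chiifu NV libraries of Bra020470 were far apart, at 3.73, 194 and 19.3 CPM, while those of LP08 held 52.8, 100 and 69.5 CPM. The other, ENSRNA049462677, had its V1 counts in 1 library, at 121 CPM, and 0 in the other libraries of V1.

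**Figure D2:**
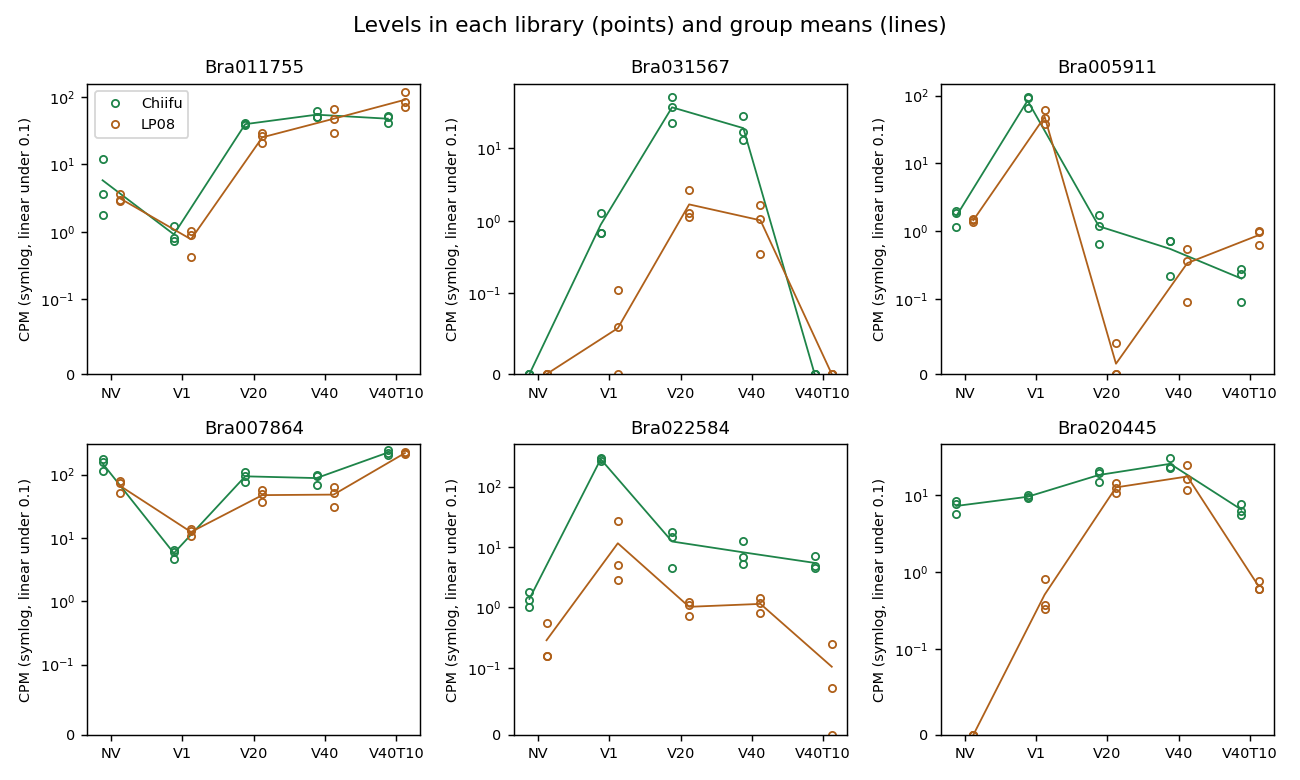
Levels of 6 features in CPM (axis linear under 0.1 and logarithmic above) at the 5 treatments in Chiifu (green) and LP08 (brown), with 1 point per library and lines through the group means. Bra005911 and Bra022584 peak at V1, Bra007864 dips at V1, Bra011755 is high from V20 on, and Bra031567 is at 0 without cold and after return to warmth.

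Set beside the other treatments, the V1 libraries stood apart in the share of counts that the called features took. Feature by feature, the level without cold was intermediate. Relative to V1, NV medians were 0.62 (higher features) and -0.67 (lower features) on the log2 scale, against 0.91 and -0.91 at V20. The 5028 higher features took 13.2 to 14% of all counts in the Chiifu V1 libraries and 24.4 to 25.7% at V20, a difference that the choice of features fixes. The other groups entered that choice only through the filter, the scaling and the shared spread, not through their own levels. There the share was 23.1 to 26.9% at NV, 25.1 to 26.1% at V40 and 24.5 to 25.6% at V40T10. The 4508 lower features took 29.4 to 30.5% of counts at V1 and 14.9 to 15.7% at V20, against 16.4 to 20% at NV, 14.8 to 15.1% at V40 and 17.4 to 18.3% at V40T10. LP08 had the same pattern with the features chosen in Chiifu. The higher ones took 16 to 16.4% of its V1 counts and 23.3 to 26.1% of its V20 counts, and the lower ones 26.7 to 28.4% and 15.5 to 17.7%.

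The level without cold divides the changes into 3 kinds. In 1808 of the higher features (36%) the mean NV level was at or above the V20 level, so these had been low at V1 and were nearer to the level without cold at V20. In 2200 (43.8%) NV lay between V1 and V20, and in 1020 (20.3%) it was at or below V1, so that V20 was farther from the level without cold. Among the lower features the numbers were 1782 (39.5%), 1747 (38.8%) and 979 (21.7%). These shares are a description, since V1 and V20 enter both the call and the division. The libraries of Chiifu NV differed more among themselves than those of other groups, with an SD of a library's log2 deviations from the group mean of 0.56 to 0.709, against 0.228 to 0.314 in the 6 libraries compared. Leaving out each NV library in turn moved the first share between 33.2 and 39.3% for higher features and between 37.4 and 41.3% for lower ones.

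Bra007864 is an example of a dip that was partly made up. Its NV libraries held 176, 159 and 116 CPM, its V1 libraries 4.62, 6.52 and 6.08 CPM, and its V20 libraries 76.4, 96.7 and 109 CPM. The rise from V1 to V20 was 16.4-fold (log2 change 4.03, SE 0.25, edgeR adjusted p 4.05e-11), and the V20 libraries stayed below those of NV. After return to warmth it stood at 223 ± 21.6 CPM (SD, n = 3). Bra010482 moved in the same way, from 35.9 ± 6.65 CPM at NV to 1.82 ± 0.138 CPM at V1 and 21.2 ± 3.46 CPM at V20, an 11.6-fold rise (edgeR adjusted p 3.97e-08). Bra022584 is an example of a peak. It held 1.34, 1.01 and 1.79 CPM at NV, 269, 294 and 288 CPM at V1, and 4.46, 14.8 and 17.7 CPM at V20, a 22.9-fold fall (edgeR adjusted p 1.59e-06). All its V20 libraries were still above the NV libraries.

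The 3 kinds had different courses at V40 and V40T10, whose levels are in neither the fold change nor the division, though V1 is the base of the medians given here. At V40 their median levels lay near those of V20. Relative to V1, the higher features with NV beyond V20 were at 0.93 on the log2 scale at V20 and 1.02 at V40, those with NV between at 0.96 and 0.95, and those with NV at or below V1 at 0.75 and 0.73. After return to warmth these medians were 1.45, 0.74 and -0.05, beside NV medians of 1.47, 0.48 and -0.34. The lower features went the same way with the sign turned, with V40T10 medians of -1.35, -0.68 and 0.09 beside NV medians of -1.34, -0.51 and 0.51. The median over all tested features was 0.08 at V40T10 and 0.02 at NV.

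**Figure D3:**
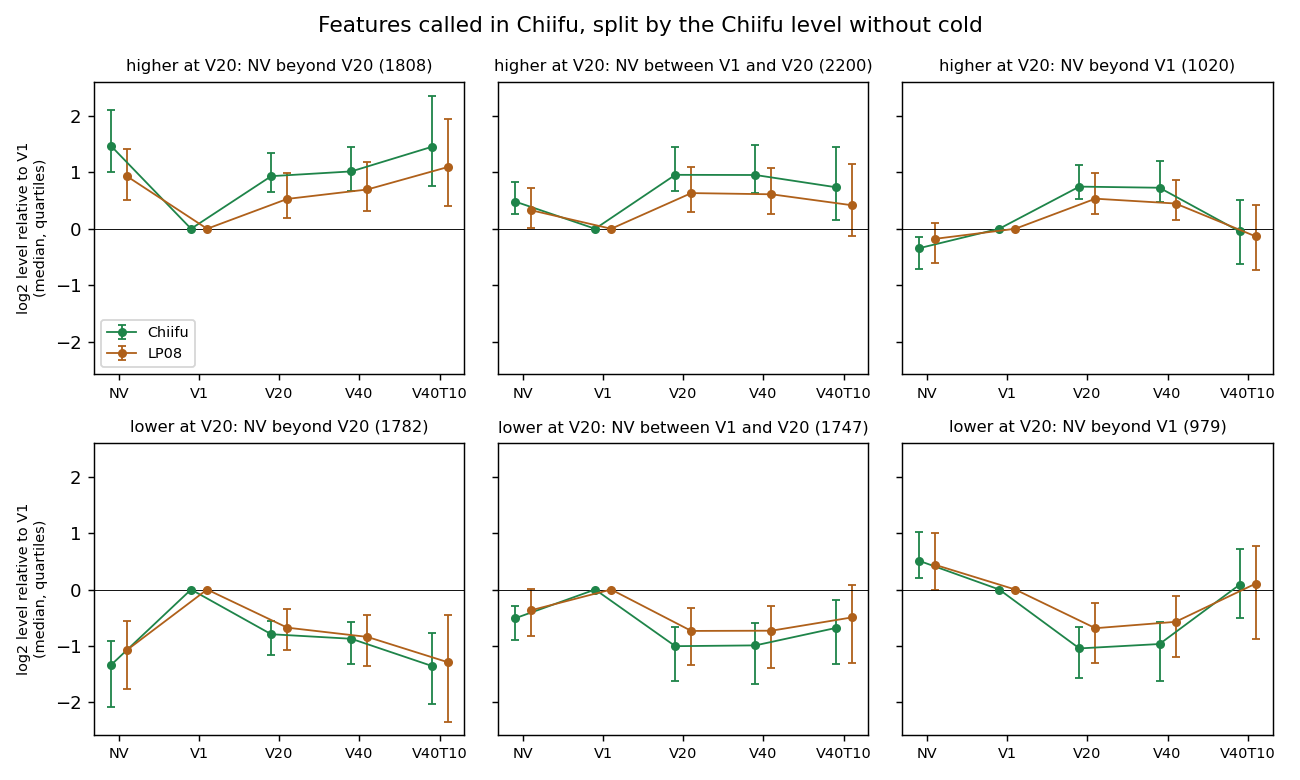
Median log2 level relative to V1 of the same cultivar (points, bars are quartiles) for features called in Chiifu, split by where the Chiifu NV level lay, at the 5 treatments in Chiifu (green) and LP08 (brown). V1 is 0 by construction, V40 medians lie near those of V20, and the features of the right column, which moved away from the NV level by V20, are back near V1 after return to warmth.

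The return to warmth was tested between V40T10 and V40, which share no library with V20 or V1, although the same fit gave the spread for both. V40T10 plants were also 10 days older than V40 plants, so warmth and age cannot be told apart there. In that comparison 46.7% of all tested features were called, 24.2% higher and 22.4% lower. Scaled by library totals alone, 9992 features were higher and 3996 lower. Of the 1020 features that rose away from the NV level, 710 (69.6%) fell on return to warmth and 21 (2.06%) rose. Of the 979 that fell away from it, 683 (69.8%) rose and 49 (5.01%) fell. Of the 1808 higher features whose NV level was beyond V20, 823 (45.5%) rose further and 202 (11.2%) fell, and of the 1782 such lower features 856 (48%) fell further and 107 (6%) rose. The 673 features that fell 4-fold or more by V20 rose in warmth by a median of 1.29 on the log2 scale, with 345 (51.3%) called higher and 79 (11.7%) lower. The 691 that rose as far had a median of -0.06, with 197 (28.5%) called higher and 188 (27.2%) lower. The median of all tested features was 0.05. Of the V20 against V1 calls under 1 CPM, 61% were 4-fold or more, against 5.78% of those between 10 and 100 CPM. A feature near 0 has little room to fall further, and what part this had in these shares was not tested.

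Whether the same step occurred in the other cultivar was asked with LP08 V20 against V1, which shares no library with the Chiifu comparison. In LP08, 34.3% of features were called, 16.8% higher and 17.5% lower. By library totals alone the split was 7403 higher and 3125 lower. Of the 5028 features that rose in Chiifu, 2736 (54.4%) also rose in LP08 and 85 (1.69%) fell. Of the 4508 that fell in Chiifu, 2840 (63%) also fell in LP08 and 78 (1.73%) rose. These shared features are 56.6% of the higher and 56.5% of the lower features of LP08. Higher Chiifu features had a median log2 change of 0.59 in LP08, and 87.4% of them were above 0 there. Lower ones had a median of -0.72 and 9.47% above 0, against a median of 0 and 48.4% over all tested features. Pearson's correlation between both sets of log2 fold changes was 0.506 across the 28712 features, which do not count as replicates.

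Bra012784 and Bra014981 are examples of changes shared by both cultivars, ranked by the smaller of both changes. Bra012784 fell in Chiifu from 299, 299 and 320 CPM to 11.7, 10.7 and 5.56 CPM, and in LP08 from 702, 429 and 461 CPM to 10.6, 19.6 and 8.05 CPM. These were falls of 32.9-fold and 41.6-fold (edgeR adjusted p 1.62e-09 and 6.14e-10). Bra014981 rose in Chiifu from 2.49, 1.04 and 5.16 CPM to 96.1, 76.7 and 76 CPM, 28.7-fold (edgeR adjusted p 0.000112), and 46.8-fold without Chiifu V1 replicate 3. In LP08 it rose from 6.02, 3.98 and 4.14 CPM to 411, 404 and 401 CPM, 86.1-fold (edgeR adjusted p 6.17e-06). Its Chiifu NV libraries were at 0.383, 49 and 122 CPM, so its level without cold is uncertain. Bra007947 rose 14.6-fold in Chiifu and 41.2-fold in LP08, and its Chiifu NV libraries were also far apart, at 0.622, 46.6 and 54.1 CPM. Bra030494, described above, fell 24.6-fold in LP08, and 14.4-fold without LP08 V1 replicate 1.

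**Figure D4:**
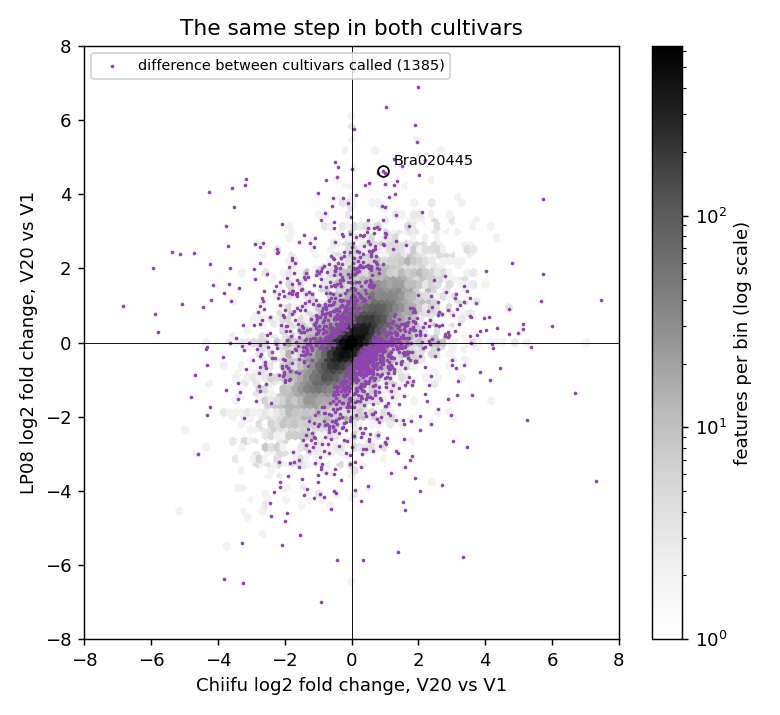
Log2 fold change from 1 to 20 days of cold in Chiifu (x axis) and LP08 (y axis), with grey hexagons for the number of features (log scale) and purple points for the 1385 features whose change differed between the cultivars. Pearson's correlation between both changes was 0.506 over the 28712 features, Bra020445 (circle) rose further in LP08, and 29 features lie outside the axes.

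The change itself differed between the cultivars for 1385 features, 4.82% of those tested, in the interaction term of the same fit. The LP08 change was the higher one in 595 (2.07%) and the lower one in 790 (2.75%), which became 836 and 518 by library totals alone. Of the 2292 features that rose in Chiifu without a call in that direction in LP08, this difference was called for 370 (16.1%), and of the 1668 that fell likewise for 271 (16.2%). Among the 1385, 78 fell in Chiifu and rose in LP08, and 84 did the reverse. A further 286 rose and 193 fell in Chiifu with no call in LP08, and 239 rose and 284 fell in LP08 with no call in Chiifu. The number was 2599 when the fit held no other groups, 3177 with limma voom and 3200 without the Chiifu NV libraries. It was 905 without Chiifu V20 replicate 2, and 923 both without Chiifu V1 replicate 1 and without LP08 V20 replicate 2.

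Bra013382 moved in opposite directions in the cultivars. In Chiifu it stood at 7.97, 9.06 and 10.2 CPM at V1 and 12.8, 20.9 and 20.3 CPM at V20, a log2 change of 0.99 (SE 0.23). In LP08 it stood at 134, 143 and 107 CPM at V1 and 18.7, 24.7 and 16 CPM at V20, a log2 change of -2.69 (SE 0.24). The cultivars were far apart at V1 and overlapped at V20. The difference of both changes was -3.68 (SE 0.33, edgeR adjusted p 3.37e-07). Bra038480 differed as much at lower levels, with a difference of -3.65 (edgeR adjusted p 0.00138). It fell in LP08 from 6.27 ± 1.87 to 1.04 ± 0.216 CPM, while its Chiifu means of 0.806 ± 0.181 and 1.7 ± 0.316 CPM did not differ past the threshold (SD, n = 3 each, edgeR adjusted p 0.0825). That Chiifu change did pass with limma voom (adjusted p 0.0358), in a fit of the compared groups only and without Chiifu NV (edgeR adjusted p 0.0137 and 0.0434).

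Bra020675 fell in Chiifu from 55.5, 56.2 and 60 CPM to 3.51, 3.88 and 6.11 CPM, 12.6-fold (edgeR adjusted p 0.000287), and was back at 57.8 ± 25.2 CPM after return to warmth (SD, n = 3). In LP08 its V1 libraries were at 1.65, 4.93 and 1.81 CPM and its V20 libraries at 11.3, 10.3 and 3.37 CPM, which overlap (edgeR adjusted p 0.095). This LP08 change passed the threshold in a fit of the compared groups only and without Chiifu NV (edgeR adjusted p 0.0404 and 0.0435). The difference of the changes was 5.24 (SE 1.01, edgeR adjusted p 0.00275), and 5.92 without LP08 V1 replicate 2. Bra036158 had a difference of 5.34 (SE 1.55), close to the threshold with an edgeR adjusted p of 0.0454. Neither cultivar's own change passed it in that fit. Both passed with DESeq2 (adjusted p 0.0458 in Chiifu and 0.0404 in LP08), in a fit of the compared groups only (edgeR adjusted p 0.000436 and 0.0178) and without Chiifu NV (edgeR adjusted p 0.0377 and 0.0365). The Chiifu change also passed with limma voom (adjusted p 0.0213), and the LP08 change with library totals, with the replicate block and without LP08 V20 replicate 3 (edgeR adjusted p 0.0434, 0.0412 and 0.0415). The call of the difference was lost in 11 of 12 fits that left out 1 library, with adjusted p up to 0.115, and without LP08 V20 replicate 1 the difference was 4.74.

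Bra020445, listed as a copy of VIN3, rose in both cultivars by different amounts. Its Chiifu levels were 9.46, 10.1 and 9.27 CPM at V1 and 20.8, 19.6 and 14.9 CPM at V20, a 1.92-fold rise (log2 change 0.94, SE 0.23, edgeR adjusted p 0.0026). All V20 libraries lay above all V1 libraries, as they did for 28.4% of all tested features. In LP08 it went from 0.826, 0.336 and 0.381 CPM to 10.9, 12.5 and 14.6 CPM, a 24.8-fold rise (log2 change 4.63, SE 0.31, edgeR adjusted p 3.43e-10). The log2 changes of the cultivars differed by 3.69 (SE 0.39, edgeR adjusted p 6.96e-06). The levels were far apart before prolonged cold and closer after it. Without cold Chiifu stood at 7.29 ± 1.32 CPM (SD, n = 3), while LP08 had 0 counts in 3 libraries, which allows up to 0.0513 CPM. After return to warmth Chiifu was at 6.52 ± 1.11 CPM and LP08 at 0.661 ± 0.0907 CPM. Reads that match several copies are not counted, so the level of a single copy is uncertain.

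Bra024536, listed as GIGANTEA, a clock-associated gene, showed no change that could be detected between 1 and 20 days in Chiifu. It stood at 210, 231 and 220 CPM at V1 and at 222, 259 and 188 CPM at V20, and the groups overlap. The log2 change was 0.02, with a 95% interval from -0.61 to 0.64 (edgeR adjusted p 0.991). Both times were above NV, where libraries held 80.3, 50.2 and 14 CPM.

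Further change between 20 and 40 days was small next to the step from 1 to 20 days. Between V40 and V20, 45 features were higher (0.157%) and 30 lower (0.104%), 0.261% of those tested, where 2750 had an unadjusted p below 0.05. By library totals alone 33 were higher and 49 lower. The median absolute log2 change over all tested features was 0.19, against 0.44 from V1 to V20 in Chiifu, 0.44 in LP08, and 0.55 on return to warmth. Correlations of log2 levels between V20 and V40 libraries were 0.978 to 0.985. The number of calls depended strongly on the test and on the libraries fitted, and was 363 with DESeq2, 653 without the Chiifu NV libraries, 1232 in a fit of V20 and V40 only, and 1782 with limma voom. In the same settings the step from V1 to V20 gave 10210, 12823, 12673 and 13959. Leaving out 1 library gave 30 to 51 calls, with 30, 34 and 35 without V20 replicates 3, 2 and 1, and 33 and 44 without V40 replicates 1 and 3.

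**Figure D5:**
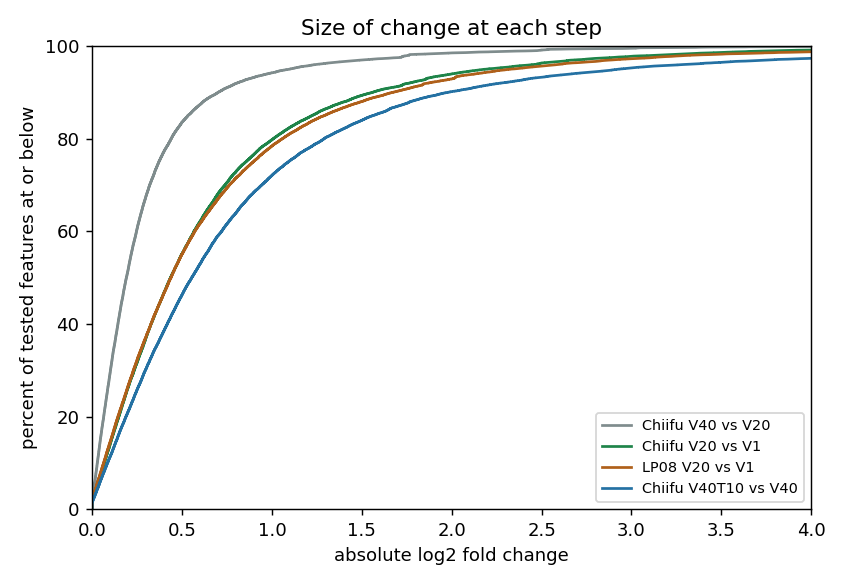
Percent of the 28712 tested features (y axis) whose absolute log2 fold change is at or below the value on the x axis, for 4 steps, with the axis ending at 4. The line for V40 against V20 rises fastest, and those for V20 against V1 nearly coincide in Chiifu and LP08.

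The features printed for the step from 20 to 40 days moved in both directions relative to their earlier change. Bra024350 fell at both steps, from 18, 16.3 and 13.5 CPM at V1 to 5.46, 6.86 and 5.42 CPM at V20 and 0.645, 0.942 and 1.06 CPM at V40. The first fall was 2.69-fold and the second 6.65-fold (edgeR adjusted p 5.16e-07 and 1.58e-08), and the groups do not overlap. It was at 2.92 ± 0.786 CPM after return to warmth. Bra011164 rose 7.37-fold from V1 to V20 and fell 7.02-fold to V40 (edgeR adjusted p 2.47e-06 and 0.000193), with libraries at 2.67, 1.81 and 1.79 CPM, then 11.2, 17.8 and 17.2 CPM, then 1.72, 2.02 and 2.83 CPM. It was thus as low at V40 as at V1. Bra031209 and Bra001629 showed the opposite course, with means of 5.35 ± 3.07 and 3.64 ± 1.56 CPM at V1, 0.979 ± 0.567 and 0.636 ± 0.157 CPM at V20, and 21.6 ± 3.97 and 9.25 ± 1.28 CPM at V40 (SD, n = 3 each). Their falls to V20 were 5.44-fold and 5.75-fold and their rises to V40 21.9-fold and 14.6-fold, with edgeR adjusted p-values of 0.000168 and 1.77e-05 for the rises. Since V20 enters both steps, a low or high V20 level turns them in opposite directions, and these features were picked for the second step.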

How the data were processed

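Whole plants of 2 Brassica rapa cultivars were sequenced under 5 treatments, with 3 libraries per cultivar and treatment. Per the labels' protocols, libraries were made with a stranded mRNA kit. Quality checks with FastQC, alignment with TopHat2, counting with HTSeq and the use of edgeR are named in the submitters' processing notes, with no version. Genome build, annotation and strand setting: not given in the sources used here. From the alignments the authors deposited 1 table of whole-number read counts per library, not normalized, with 41018 Bra rows, 1168 ENSRNA rows and 5 summary rows. In the 6 libraries compared, the summary rows of reads on no gene held 7.06 to 10.5% of the reads listed and those of reads with several alignments 2.67 to 3.8%. They stayed out of library sizes and tests. Genes with close copies may thus be undercounted, and whether antisense genes were told apart is unknown without the strand setting. Both cultivars were counted on the same IDs. Whether reads of both matched these genes equally well was not tested, which limits comparisons of level between the cultivars. Libraries of the same group differed beyond counting noise, with a chi-square per degree of freedom of at least 7.01.

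Counts were fitted with edgeR 4.0.16 in R 4.3.3 (quasi-likelihood F test, TMM scaling, filterByExpr) on all 30 libraries with 1 mean per group, so that the spread of each gene is shared by all groups. Benjamini-Hochberg adjustment ran over 28712 features within each of 5 comparisons. Standard errors come from the F statistic. CPM values use TMM-scaled library sizes, and log2 CPM a prior count of 2. The position of NV was read from group means of log2 CPM. The model was also run on counts simulated with its own fitted spread, which cannot test whether a shared spread suits every group. Printed features have the greatest changes, at most 2 per direction and comparison, among called features with at least 10 counts in each library compared and 5 CPM in 1 group. Apart from differences between the cultivars, their libraries do not overlap between the groups, and V40 and NV position each had such a choice. Bra020445 and Bra024536 were added whatever their values. The features and lists were chosen with earlier results of these data known. Alternatives were RLE scaling, library totals, no filter, DESeq2 1.42.0, limma voom 3.58.1 with weights per group, the compared groups alone, a replicate block, and leaving out each library. A fit without Chiifu NV was added after the data were seen. Symbols were sought in a RefSeq table of the assembly CAAS_Brap_v3.01 with 51589 rows.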

Additional observations from a re-analysis of the deposited data

Results flagged for a closer look

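The test of the difference between the cultivars picked out 1385 features whose change from 1 to 20 days of cold was not the same in LP08 and Chiifu. Bra036158 and Bra020675 had the higher change in LP08, with differences of log2 changes of 5.34 and 5.24, and so had Bra020445 with 3.69. Bra013382 and Bra038480 had the lower change in LP08, with -3.68 and -3.65. Of the 5 features, Bra036158 was called by the narrowest margin (edgeR adjusted p 0.0454). Single libraries far from the rest of their group were not searched for by test, as every group held 3 libraries.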

How the results depend on the processing

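Over RLE scaling, library totals, no filter, DESeq2, limma voom, a fit of the compared groups only, the replicate block and the fit without Chiifu NV, the calls for Chiifu V20 against V1 numbered 9032 to 13959, and 91.4 to 99.9% of the 9536 calls were kept. Features that rose in both cultivars or fell in both went from 5576 to 6923 with the compared groups alone. Calls for the difference between cultivars became 3177 with voom, 2599 in the fit of those groups only and 3200 without Chiifu NV. Those for V40 against V20 became 363 with DESeq2, 1782 with voom, 1232 in the fit of those groups only and 653 without Chiifu NV. With 1 library left out, they ranged from 7649 to 8022 for Chiifu V20 against V1, 7954 to 8370 for LP08, 905 to 1164 for the difference, 30 to 51 for V40 against V20 and 11518 to 11925 for V40T10 against V40. The share of features with NV beyond V20 ranged from 33.2 to 39.3% (higher) and 37.4 to 41.3% (lower) without 1 NV library.

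With library totals as the sole scaling, the median of all features moved to 0.08 in Chiifu, 0.20 in LP08, 0.11 for the difference, -0.08 for V40 against V20 and 0.31 on return to warmth. The higher calls were then 61.1% instead of 52.7% in Chiifu, 70.3% instead of 49% in LP08, 61.7% instead of 43% for the difference, 40.2% instead of 60% for V40 against V20 and 71.4% instead of 51.9% for V40T10 against V40. The cause of these differences was not tested.

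Same-numbered Chiifu V1 and V20 libraries had correlations of deviations of 0.219, -0.0749 and 0.273, beside -0.349 to 0.198 for differently numbered ones. Those of LP08 were -0.00937, -0.0476 and 0.158, beside -0.115 to 0.127. These values do not settle whether the numbers pair the samples, and the main fit did not pair them. With the replicate block the calls were 9263 for Chiifu V20 against V1, 9574 for LP08, 1153 for the difference, 54 for V40 against V20 and 13241 for V40T10 against V40. The change of Bra024536 was -0.006 with the block and from -0.105 to 0.126 without 1 library, never called. Low levels limit the size of folds: for Bra031567 in LP08 V1 and Bra020470 at V20 they rest on 3 and 2 counts.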

Other observations

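The noncoding feature ENSRNA049462677, chosen after its values were seen, was high in single libraries. In Chiifu it stood at 121 CPM in V1 replicate 2, at 1690 CPM in V40 replicate 1 and at 90.2 CPM in V40 replicate 3, and in LP08 at 65.3 CPM in V20 replicate 3 and 224 CPM in V40 replicate 3. The other 25 libraries held at most 0.336 CPM.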
